A study of Mus musculus with 15 samples.

Results

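The Myc and Pvt1 locus lies on mouse chromosome 15, where the protein-coding gene Myc is followed by the long noncoding RNA gene Pvt1. Its members were the regions of the deposited tables that overlap chr15:61850000-62130000 in mm39, whatever their counts. One table, made for the knockdown comparison (the KD table), held 7 such regions of 44598, and the other, made for the overexpression comparison (the OE table), held 62 of 38036. By position, Myc was assigned 4 regions (KD table) and 5 regions (OE table), Pvt1 was assigned 3 and 57, and 0 lay outside the gene bounds used here. The regions carry no gene names, so the assignment rests on approximate gene bounds in mm39 (Myc 61856500 to 61863000, Pvt1 61909000 to 62123500).

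The study asked how the level of Smarcd1, a subunit of the BAF chromatin remodelling complex, affects accessible chromatin. The libraries were ATAC-seq of 6DT1 cells, an FVB/N mouse mammary carcinoma line, untreated and grown as a monolayer on plastic. There were 3 libraries of each of 5 lentivirally transduced lines: KD6 and KD4, which carry shRNAs against Smarcd1, Scr, which carries a scrambled shRNA, OE, which carries a Smarcd1 cDNA with a C-terminal Myc tag under a pol2 promoter, and EV, which carries the empty vector. According to the methods, the shRNA lines were kept in puromycin and the OE and EV lines in blasticidin, so vector, hairpin and drug cannot be told apart where Scr is set against EV. The labels give the genotype as knockdown for KD6 and KD4, over expression for OE and wildtype for Scr and EV, and they do not tie KD4 or KD6 to a numbered hairpin of the methods. Their extraction text has replicates seeded from different passages on following days. That text describes RNA extraction and the submitters' notes name an RNA aligner, while the methods describe transposed DNA, so the kind of reads behind the counts is unsettled. Per library the KD table summed to 16176521 to 23703741 counts and the OE table to 22668624 to 31225937 counts, and each table lists all 15 libraries.

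Myc encodes a transcription factor that drives growth and proliferation and is a common oncogene of mammary tumours. Pvt1 is transcribed from the same strand downstream of Myc and is often gained in copy number together with it in human cancers, where the PVT1 RNA has been tied to the stability of the MYC protein. In human cells the PVT1 promoter also competes with MYC for enhancers that lie within PVT1. The 6DT1 line came from a tumour of a mouse with a Myc transgene, and counts per region do not separate copies of a transgene from the gene on chromosome 15.

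The genes stood far apart in level. Counts were scaled to CPM, the counts of a region relative to the library total, with the trimmed mean of M-values (TMM) over the 15 libraries of a table. The 5 Myc regions of the OE table averaged 182.6, 171.0, 335.4, 42.4 and 30.1 CPM in order along the chromosome. Per kb of region they had 113.9 to 564.6 CPM, above 91.1% to 98.7% of all regions of that table. The 57 Pvt1 regions averaged 0.465 to 5.47 CPM with a median of 1.42, and 43 of them were under 2 CPM. Per kb the median Pvt1 region had 4.83 CPM, against 18.5 CPM for the median region of the whole table, and the range was 1.63 to 26.0 CPM. Behind these levels stand 595 to 12045 counts per library at a Myc region and 2 to 213 at a Pvt1 region, so single Pvt1 values carry a large counting error.

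**Figure D1:**
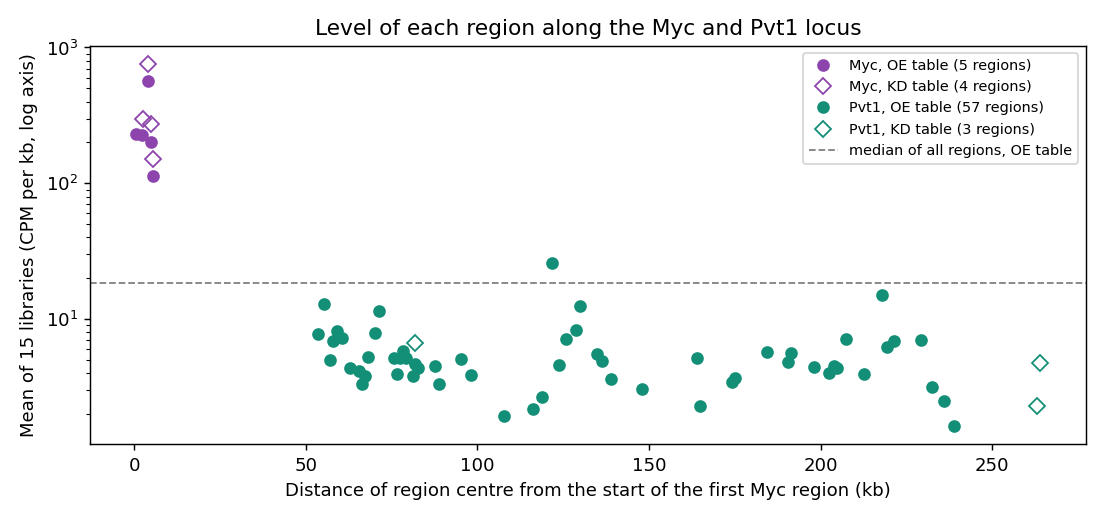
Mean level of each region over 15 libraries in CPM per kb (log axis) against the distance of its centre from the start of the first Myc region in kb. Filled circles are regions of the OE table and open diamonds those of the KD table; the dashed line is the median of all regions of the OE table (18.5 CPM per kb), which every Myc region exceeds and 1 Pvt1 region, at 26.0 CPM per kb, exceeds.

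The Myc regions of the OE table were chr15:61857437-61858230 (region 1), chr15:61859354-61860107 (region 2), chr15:61861269-61861862 (region 3), chr15:61862340-61862551 (region 4) and chr15:61862716-61862979 (region 5). In the KD table, regions 2 to 5 had counterparts at chr15:61859690-61860101, chr15:61861270-61861852, chr15:61862341-61862536 and chr15:61862716-61862976, and region 1 had none. No mm39 annotation was used, so only spacing could be set against a gene model. The 5 regions span 5543 bp, more than the 4984 bp of Myc in an annotation of the older build NCBIM37 and the 5021 bp in RefSeq on GRCm38.p6, so not all of them can lie inside a gene of that length. Shifted together for the greatest overlap with Myc exons of the NCBIM37 annotation, region 2 lay on exons over 754 of its 754 bp, region 3 over 585 of 594 bp and region 1 over 447 of 794 bp, while regions 4 and 5 fell beyond the end of the gene. At that placement region 1 began 114 to 123 bp after the start of the gene. This is a match of distances between builds and not an annotation of the regions.

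The Pvt1 regions of the OE table formed a long run of low regions. The first, chr15:61910708-61911382 (675 bp), began 47728 bp after the last Myc region and lies nearest to the approximate start of the gene. The run covered 185795 bp, of which the 57 regions, each 155 to 818 bp long, took up 9.99%, with a median gap of 1748 bp. Such crowding was uncommon in the OE table, since of 9716 adjoining windows of the same length along the genome, 3 held at least 62 regions, and the median window held 1. Those windows lay on a fixed grid, while the locus window was set around its genes. In the KD table, 2501 of 9717 windows held at least as many regions as the locus. Divided into 3 equal parts of 61.9 kb, the run held 26, 15 and 16 regions, with median levels of 5.07, 4.61 and 4.68 CPM per kb. The regions with the highest level per kb were region 29 (chr15:61979063-61979225, 26.0 CPM per kb), region 51 (chr15:62075079-62075237, 15.1 CPM per kb) and region 2 (chr15:61912603-61912844, 13.01 CPM per kb). The KD table held 3 Pvt1 regions, chr15:61939279-61939456, chr15:62120377-62120564 and chr15:62121210-62121610, at 1.20, 0.433 and 1.90 CPM, and the last 2 have no counterpart in the OE table. All 62 locus regions of the OE table passed the filter on low counts in every comparison. Of the KD table all 7 did in the fit of KD4, KD6 and Scr, and 6 did where EV was compared, which left out chr15:62120377-62120564.

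Myc counts were somewhat lower in KD4 cells than in Scr cells and close to Scr in KD6 cells, and no Myc region passed the test. Over the 4 Myc regions of the KD table, the summed level was 619.0, 644.9 and 672.5 CPM in the KD6 libraries and 517.6, 585.2 and 593.2 CPM in the KD4 libraries, against 643.7, 660.8 and 717.5 CPM in the Scr libraries. The KD6 and Scr libraries overlapped, and the 3 KD4 libraries lay below both. In these bulk libraries fewer cells with reads at a region and fewer reads per cell cannot be told apart. Sums averaged 645.4 ± 26.8 CPM in KD6, 565.3 ± 41.5 CPM in KD4 and 674.0 ± 38.6 CPM in Scr (SD, n = 3 each), so the KD4 mean was 0.839 times and the KD6 mean 0.958 times that of Scr. Over the 5 Myc regions of the OE table, the same ratios were 0.866 for KD4 and 1.007 for KD6, so the KD6 mean was not below Scr there. These sums are descriptions with no test, and the test was made region by region.

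With KD4 and KD6 together against Scr, 0 of the 7 locus regions of the KD table were past a false discovery rate (FDR) of 0.05 by the quasi-likelihood test of edgeR, where 0.271% of all 44289 regions tested were. At an unadjusted p under 0.05 the number was also 0 of 7, where 8.25% of all regions were. DESeq2 called 0, where it called 0.625% of all regions. The log2 fold changes of the Myc regions were -0.09 (standard error 0.112) at the counterpart of region 2, -0.17 (0.114) at that of region 3, -0.20 (0.119) at that of region 4 and -0.22 (0.119) at that of region 5, with adjusted p of 0.668 to 0.882 from edgeR. All 4 were below 0 and each lay within 2 standard errors of it. Among the 3 Pvt1 regions of that table the log2 fold changes were -0.46 (0.338), 0.30 (0.443) and -0.07 (0.253), so they did not share a direction.

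Taken line by line, no locus region of the KD table passed either. For KD4 against Scr 0 of 7 were called, where 0.576% of all regions were, and for KD6 against Scr 0 of 7, where 0.149% were. The counterpart of Myc region 3 had 399.5, 382.3 and 315.5 CPM in KD4, against 456.1, 405.7 and 487.7 CPM in Scr, with no overlap of the groups (log2 fold change -0.30, standard error 0.132, adjusted p = 0.468 from edgeR). It was 1 of 4 Myc regions whose KD4 libraries were all below Scr, where 7.34% of all regions were, and 1 of 4 with an unadjusted p under 0.05, where 9.74% were. In KD6 the lower regions were instead those at the far end: the counterpart of region 4 had 48.9, 44.1 and 43.0 CPM in KD6, against 64.4, 57.4 and 47.0 CPM in Scr. There the groups overlapped, with a log2 fold change of -0.31 (standard error 0.139, adjusted p = 0.828 from edgeR). The counterpart of region 5 had 37.4, 34.8 and 36.4 CPM in KD6, against 36.7, 48.3 and 48.0 CPM in Scr (log2 fold change -0.29, standard error 0.138, adjusted p = 0.849 from edgeR). These were 2 of 4 Myc regions at an unadjusted p under 0.05, where 5.87% of all regions were, and neither was close to the adjusted threshold. Both match regions 4 and 5, which fell beyond the end of the gene in the placement by spacing.

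The OE table, which counts the same libraries, also holds Myc region 1, which the KD table lacks. It had 168.9, 196.0 and 208.4 CPM in KD6 and 165.7, 151.3 and 129.7 CPM in KD4, against 165.5, 179.3 and 233.7 CPM in Scr. KD4 was lowest, with 1 of its libraries just above the lowest Scr library, and the log2 fold change of KD4 against Scr was -0.37 (standard error 0.158, adjusted p = 0.43 from edgeR). That of KD6 against Scr was -0.01 (standard error 0.157). With both lines together the 5 Myc regions had log2 fold changes of -0.19 to -0.03 against Scr and 0 were called, where 0.164% of all regions were. For KD4 against Scr 0 of the 5 regions were called, against 0.293% of all regions, with 1 of 5 at an unadjusted p under 0.05, against 10.3%. For KD6 against Scr 0 of 5 were called, against 0.0158%, with 0 at an unadjusted p under 0.05, against 6.46%.

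KD6 and KD4 did not overlap at the first 3 Myc regions, but no difference passed the test across all regions. At region 1 the 3 KD6 libraries given above all exceeded the 3 KD4 libraries (log2 fold change 0.36, standard error 0.158, adjusted p = 0.941 from edgeR). Region 2 had 182.6, 173.1 and 166.2 CPM in KD6, against 156.1, 160.2 and 137.0 CPM in KD4 (log2 fold change 0.20, standard error 0.137). Region 3 had 325.1, 335.6 and 348.6 CPM in KD6, against 298.4, 304.3 and 252.0 CPM in KD4 (log2 fold change 0.24, standard error 0.135). At regions 4 and 5 the log2 fold changes were below 0, at -0.23 (standard error 0.152) and -0.16 (0.152). All KD6 libraries were above all KD4 libraries at 3 of 5 Myc regions, where this held for 5.46% of all regions tested, and at 2 of 4 in the KD table, where it held for 5.93%. At the counterpart of region 4 in the KD table, every KD6 library was below every KD4 library, as at 5.8% of all regions. By edgeR, 0 of 62 locus regions were called in the OE table, against 0.19% of all regions, with 1 of 62 at an unadjusted p under 0.05, against 5.04%. In the KD table, 0 of 7 were called, against 0.224%, with 0 at an unadjusted p under 0.05, against 6.37%. Regions of 1 gene are not replicates of a line, and neighbouring regions share libraries.

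In OE cells no Myc region was called. Region 3, the highest, had 286.6, 338.5 and 386.3 CPM in OE, against 481.9, 340.0 and 352.7 CPM in EV, and the groups overlapped (log2 fold change -0.20, standard error 0.16, adjusted p = 0.706 from edgeR). Region 1 had 141.9, 190.7 and 228.1 CPM in OE, against 218.5, 176.9 and 184.2 CPM in EV (log2 fold change -0.03, standard error 0.158). Region 2 had 145.5, 187.0 and 187.1 CPM in OE, against 191.4, 197.1 and 184.6 CPM in EV (log2 fold change -0.12, standard error 0.134). The groups overlapped at each of these regions, and OE replicate 1 was the lowest OE library at all 3. At regions 4 and 5 the log2 fold changes were -0.03 (standard error 0.152) and 0.02 (0.147). The summed level of the 5 regions averaged 771.8 ± 121.5 CPM in OE and 851.4 ± 92.9 CPM in EV (SD, n = 3 each), with overlapping libraries. By edgeR 0 of 62 locus regions of the OE table were called, where 0.0106% of all 37765 regions tested were. In the KD table, 0 of the 6 locus regions tested were called, where 0.0% of 44011 were, and 0 of the 6 had an unadjusted p under 0.05, where 6.6% of all regions did.

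**Figure D2:**
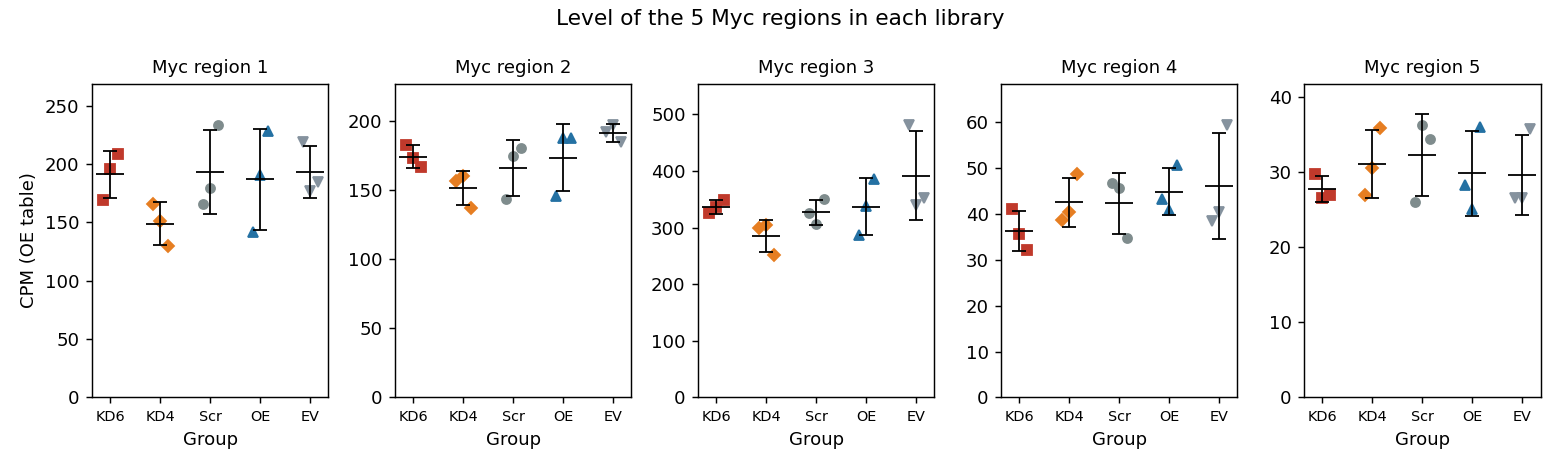
CPM of the 5 Myc regions of the OE table (1 panel each) in every library, by group, with the mean and SD (bars, n = 3). KD4 means lie below the other groups at regions 1 to 3, for instance 148.9 CPM in KD4 and 192.8 CPM in Scr at region 1, and no difference was past FDR 0.05.

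The Myc regions fell into a leading and a trailing set by how they varied among libraries. Over the 15 libraries of the OE table, Pearson's r of log2 CPM was 0.72 to 0.82 among regions 1, 2 and 3 and 0.56 between regions 4 and 5. Between the sets it was -0.31 to -0.0036, so the sets did not vary together. These are descriptions over libraries that share scaling and depth. By the same measure in the KD table, the regions outside the locus most like the summed Myc level were chr11:5230685-5231058 (r = 0.87), chr11:120000916-120001266 (r = 0.87), chr14:20611565-20612063 (r = 0.86), chr11:78239462-78239801 (r = 0.86) and chr4:98003657-98003877 (r = 0.84). They were picked from 44591 regions for their r, which therefore carries no p.

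At the Pvt1 regions of the OE table each comparison with a control line shifted in 1 direction along nearly the whole run. Its summed level over 57 regions was 66.8, 87.5 and 123.8 CPM in KD6 and 116.7, 76.8 and 72.3 CPM in KD4, against 153.2, 96.7 and 149.7 CPM in Scr. It was 93.6, 88.3 and 146.9 CPM in OE, against 87.0, 66.9 and 101.7 CPM in EV. Scr thus had the 2 highest libraries and its other library lay within the range of all other groups. In order of their means, the sums were 133.2 ± 31.7 CPM in Scr, 109.6 ± 32.4 CPM in OE, 92.7 ± 28.9 CPM in KD6, 88.6 ± 24.4 CPM in KD4 and 85.2 ± 17.5 CPM in EV (SD, n = 3 each). No neighbours in that order differed by more than their SD, and the 3 libraries of a group spread by up to 1.85-fold.

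**Figure D3:**
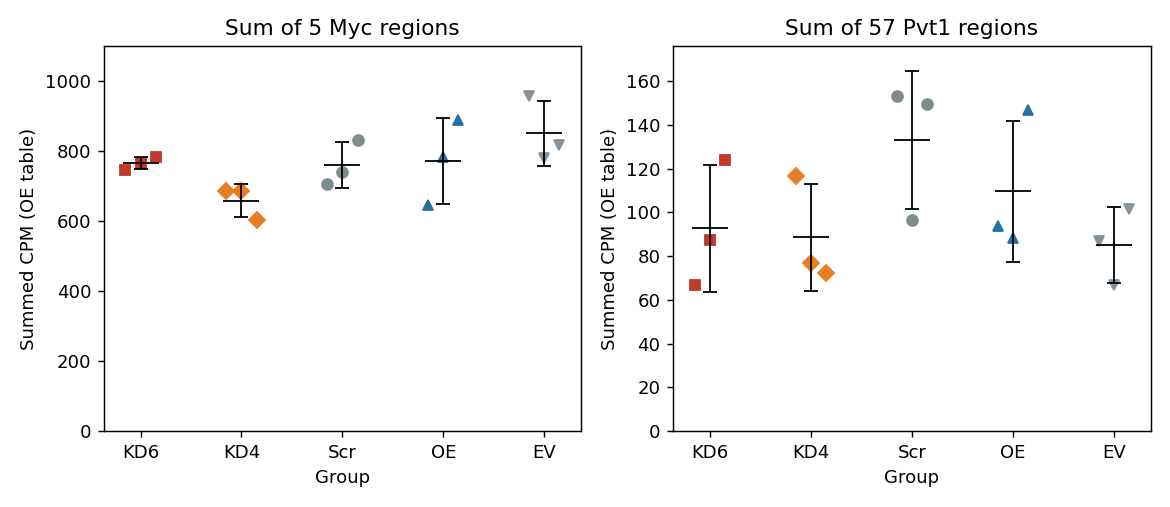
Summed CPM of the 5 Myc regions (left) and the 57 Pvt1 regions (right) of the OE table in every library, by group, with the mean and SD (bars, n = 3). The Pvt1 sum averages 133.2 CPM in Scr, 88.6 CPM in KD4 and 85.2 CPM in EV, and the libraries of Scr overlap those of the other groups.

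Against Scr, Pvt1 counts of the OE table were lower in KD cells across the run, without any region reaching the threshold by edgeR. Reading the KD libraries in that table was a choice made after seeing the data. In the KD table the 3 Pvt1 regions did not share a direction, with log2 fold changes of -0.46, 0.30 and -0.07. All 57 log2 fold changes of KD against Scr were below 0, with a median of -0.60 and a range of -1.09 to -0.04, where the median of all 37868 regions tested was -0.02. By edgeR 0 of 57 were called, where 0.164% of all regions were, and 26 of 57 had an unadjusted p under 0.05, where 9.86% of all regions did. DESeq2 called 2 of 57, regions 30 and 52, where it called 0.647% of all regions. In place of 26, the number at an unadjusted p under 0.05 was 10 without Scr replicate 1, 15 without Scr replicate 3, 15 without KD4 replicate 3 and 16 without KD6 replicate 1. Of all regions, 6.66% to 7.77% were at such a p in those fits. The number was 35 without KD4 replicate 1 or Scr replicate 2 and 39 without KD6 replicate 3, where 12.2% to 15.8% of all regions were. In 7 of 57 regions every KD library was below every Scr library, where 1.88% of all regions had that pattern. The run's regions varied together among libraries, so these counts are not 57 separate observations: the median r of log2 CPM over the 1596 pairs of Pvt1 regions was 0.65, and 0.11 over the 285 pairs of a Myc with a Pvt1 region.

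The 2 Pvt1 regions with the smallest p lay 95 kb apart. Region 30, chr15:61981045-61981442, had 1.06, 1.35 and 1.60 CPM in KD6 and 1.42, 1.38 and 1.03 CPM in KD4, against 3.01, 2.14 and 2.59 CPM in Scr. Region 52, chr15:62076466-62076892, had 1.39, 2.24 and 2.65 CPM in KD6 and 1.96, 2.14 and 2.22 CPM in KD4, against 4.15, 3.55 and 3.77 CPM in Scr. At both, all KD libraries lay below all Scr libraries. The log2 fold changes were -0.98 (standard error 0.217, adjusted p = 0.102 from edgeR) at region 30 and -0.86 (standard error 0.197, adjusted p = 0.115 from edgeR) at region 52. Region 1, at the start of the run, had 4.001, 4.018 and 5.92 CPM in KD6 and 5.42, 4.06 and 3.82 CPM in KD4, against 7.51, 4.83 and 7.84 CPM in Scr (log2 fold change -0.57, standard error 0.19, adjusted p = 0.34 from edgeR). The 2 regions with the highest level per kb had the values nearest to 0 of the 57: the log2 fold change was -0.04 ± 0.179 (standard error) at region 29 and -0.15 ± 0.241 at region 51. Both are narrow, at 163 and 159 bp.

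Each line alone had the same direction as both together. For KD4 against Scr the median log2 fold change over Pvt1 was -0.65 with 57 of 57 below 0, and 0 of 62 locus regions were called, where 0.293% of all regions were. At an unadjusted p under 0.05 there were 18 Pvt1 regions, against 10.3% of all regions, and in 16 every KD4 library was below every Scr library, against 8.15%. The number of 18 became 6 without KD4 replicate 3, 7 without KD4 replicate 2 or Scr replicate 1 and 10 without Scr replicate 3, where 6.73% to 7.79% of all regions were at such a p, and 33 without KD4 replicate 1 and 35 without Scr replicate 2, where 13.3% and 13% were. For KD6 against Scr the median was -0.59 with 56 of 57 below 0, and 0 of 62 were called, where 0.0158% were. There, 15 had an unadjusted p under 0.05, against 6.46% of all regions. This number was 5 without KD6 replicate 1, 6 without Scr replicate 1 and 7 without KD6 replicate 2 or Scr replicate 3, where 3.9% to 5.14% of all regions were at such a p, and it was 27, against 8.54%, without Scr replicate 2 and 30, against 13.4%, without KD6 replicate 3. The median ran from -0.86 without KD6 replicate 3 to -0.38 without KD6 replicate 1. Both comparisons use the same Scr libraries. Between KD6 and KD4 the median was 0.04, with 36 of 57 above 0 and 0 at an unadjusted p under 0.05, and its sign turned with the libraries, at -0.25 without KD6 replicate 3 and 0.29 without KD4 replicate 1. The smallest p there was that of region 35, chr15:61993548-61993726, with 0.624, 1.31 and 1.21 CPM in KD6, against 0.667, 0.580 and 0.698 CPM in KD4 (log2 fold change 0.69, standard error 0.377, adjusted p = 1.00 from edgeR).

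In the OE table, Pvt1 counts were somewhat higher in OE cells than in EV cells. All 57 log2 fold changes were above 0, with a median of 0.37 and a range of 0.02 to 0.97, where the median of all regions tested was 0.02. By edgeR 0 were called, and 5 of 57 had an unadjusted p under 0.05, where 8.57% of all regions did. That number was 1 without OE replicate 3 and 2 without EV replicate 2, where 4.11% and 6.75% of all regions were at such a p, and 16 without EV replicate 3 and 17 without OE replicate 2, where 13.9% and 9.93% were. OE libraries were all above EV libraries at 3 of 57 regions, where 6.98% of all regions had that pattern. Region 27, chr15:61973162-61973979, had 1.93, 1.72 and 3.01 CPM in OE, against 1.20, 0.807 and 1.41 CPM in EV (log2 fold change 0.97, standard error 0.286, adjusted p = 0.569 from edgeR). Region 49, chr15:62064859-62065043, had 1.51, 1.25 and 1.99 CPM in OE, against 0.960, 0.877 and 1.05 CPM in EV (log2 fold change 0.73, standard error 0.279, adjusted p = 0.569 from edgeR). The groups did not overlap at either. The shift rested on OE replicate 3 more than on the other libraries: without it the median was 0.14 and 41 of 57 were above 0, and without EV replicate 2 it was 0.19 with 50 of 57 above 0.

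By edgeR with all libraries, the only calls at the locus were between the control lines. For Scr against EV all 57 Pvt1 regions were above 0 with a median log2 fold change of 0.63, 30 of them at an unadjusted p under 0.05, where 26.7% of all regions were, and 5 were past FDR 0.05 by edgeR, all higher in Scr, where 5.34% of all 37671 regions tested were past it. Scr libraries were all above EV libraries at 21 of 57 regions, where 14.7% of all regions had that pattern. Of the Myc regions 0 of 5 were called, and their log2 fold changes ran from -0.27 to 0.12. At an unadjusted p under 0.05, the 30 Pvt1 regions became 14 without EV replicate 2, 16 without Scr replicate 1 and 19 without Scr replicate 3, where 17.8% to 20.7% of all regions were. They became 32 without EV replicate 3 and 38 without Scr replicate 2, where 27.6% and 30.1% were. In the KD table, 0 of 6 locus regions tested were called, where 4.38% of all regions were, and 0 had an unadjusted p under 0.05, where 22.8% of all regions did.

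The 5 called regions lay in the first 63.3 kb of the run, which holds regions 1 to 27 of its 57. Region 27 had 3.10, 1.87 and 2.74 CPM in Scr, against 1.20, 0.807 and 1.41 CPM in EV (log2 fold change 1.16, standard error 0.286, adjusted p = 0.028 from edgeR). Region 2 had 3.98, 3.74 and 5.52 CPM in Scr, against 2.44, 1.61 and 2.57 CPM in EV (log2 fold change 0.99, standard error 0.236, adjusted p = 0.024 from edgeR). At both, every Scr library was above every EV library. Region 4, chr15:61915280-61915562, had 3.67, 2.07 and 3.12 CPM in Scr, against 1.40, 1.26 and 1.74 CPM in EV (log2 fold change 0.99, standard error 0.265, adjusted p = 0.0357 from edgeR). Region 23, chr15:61946209-61946415, had 0.786, 1.44 and 1.29 CPM in Scr, against 0.520, 0.316 and 0.544 CPM in EV (log2 fold change 1.35, standard error 0.368, adjusted p = 0.0385 from edgeR). Those groups also did not overlap, and region 23 rests on 9 to 37 counts per library. Region 15, chr15:61933720-61934245, had 3.49, 1.68 and 4.11 CPM in Scr, against 1.32, 0.947 and 1.99 CPM in EV, with Scr replicate 2 inside the EV range (log2 fold change 1.11, standard error 0.315, adjusted p = 0.0442 from edgeR). The calls depended on single libraries, at Pvt1 as over the whole table: 0 were left without EV replicate 1, EV replicate 2, Scr replicate 1 or Scr replicate 3, where 0.461% to 0.965% of all regions were called. Without EV replicate 3 there were 10, where 7.93% of all regions were called, and without Scr replicate 2 there were 17, where 10.7% were.

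**Figure D4:**
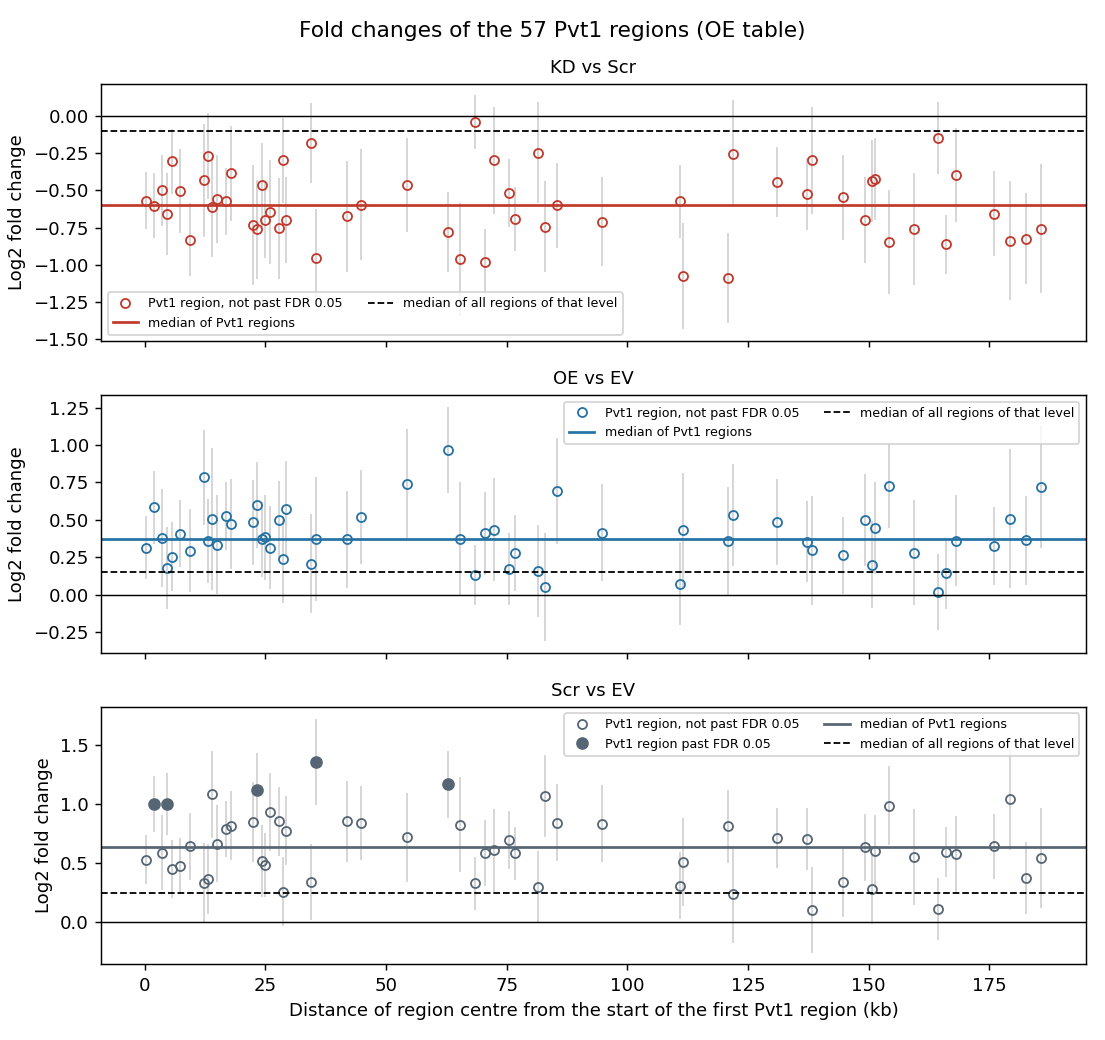
Log2 fold change of each of the 57 Pvt1 regions of the OE table (points, bars are standard errors) against its distance from the start of the first Pvt1 region in kb, for KD against Scr, OE against EV and Scr against EV. Solid lines are the Pvt1 medians (-0.60, 0.37 and 0.63) and dashed lines the medians of all regions of the same level (-0.10, 0.15 and 0.24); filled points are past FDR 0.05, 5 of them in Scr against EV and 0 in the other panels.

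Regions of low level moved the same way as Pvt1 in these comparisons, by less. The OE table held 19556 other regions with a mean between the lowest and the highest Pvt1 region (0.465 to 5.47 CPM). Their median log2 fold change was -0.10 for KD against Scr (34.9% above 0), 0.15 for OE against EV (72.3% above 0) and 0.24 for Scr against EV (70.1% above 0). In the KD table, regions of the level of its 3 Pvt1 regions went the other way for KD against Scr, with a median of 0.07 and 59.1% above 0. Scaled by TMM over regions of the Pvt1 level alone, an alternative chosen after seeing the data, the Pvt1 medians were -0.51 for KD against Scr with 56 of 57 below 0, 0.22 for OE against EV with 51 of 57 above 0 and 0.42 for Scr against EV with 55 of 57 above 0 and 5 called, where 16% of all regions were. In 4 of 5 groups the library with the highest level over those low regions also had the highest Pvt1 sum. The part of this shift in the Pvt1 values was not tested further.

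Other crowded stretches of low regions showed the pattern too. In the OE table, 16 other windows of the same length held at least 40 regions, and 8 of them had a median level under 4 CPM. Both limits were chosen after values were seen. The windows above 4 CPM, at 6.54 to 10.2 CPM, had medians on both sides of 0. These ran from -0.05 to 0.11 for KD against Scr, -0.09 to 0.24 for OE against EV and -0.19 to 0.20 for Scr against EV. In all 8 windows under 4 CPM the median log2 fold change was below 0 for KD against Scr (-0.54 to -0.10). It was above 0 for OE against EV (0.15 to 0.34) and for Scr against EV (0.26 to 0.63). The nearest to Pvt1 in level were chr6:28561108-28837803, with 58 regions and medians of -0.47, 0.27 and 0.63 in those comparisons, and chr6:31081747-31316168, with 45 regions and medians of -0.54, 0.25 and 0.52. Whether Pvt1 differed from such stretches was not tested. Along Pvt1 itself the medians of the 3 parts were alike, at -0.59, -0.69 and -0.60 for KD against Scr, 0.38, 0.38 and 0.36 for OE against EV and 0.74, 0.60 and 0.58 for Scr against EV. Scr against EV shares the Scr libraries with KD against Scr and the EV libraries with OE against EV, so its sign is not separate from theirs.

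**Figure D5:**
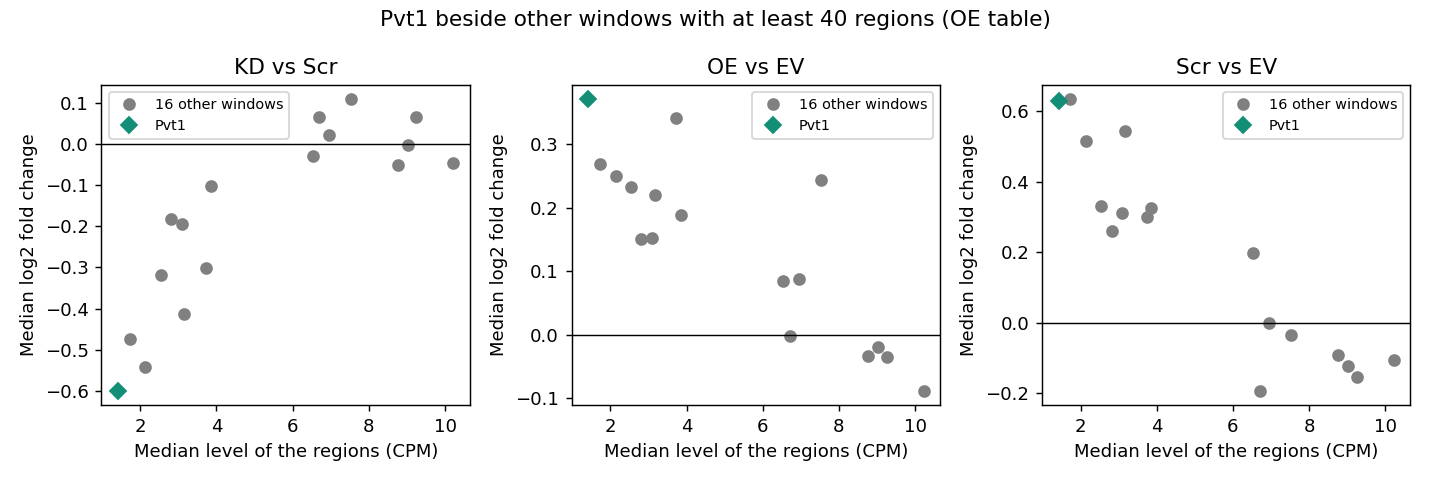
Median log2 fold change against median level in CPM for the 57 Pvt1 regions (diamond) and 16 other windows of the same length with at least 40 regions in the OE table (circles), for KD against Scr, OE against EV and Scr against EV. The 8 other windows under 4 CPM lie on the same side of 0 as Pvt1 in each panel, with medians of -0.54 to -0.10, 0.15 to 0.34 and 0.26 to 0.63.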

How the data were processed

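Per the methods, ATAC-seq reads were aligned by the authors with Bowtie2 against mm39 and peaks came from MACS, run within Partek Flow. The submitters' notes instead name STAR 2.7.8a, also with mm39. How peaks became regions and how reads were assigned to them: not given in the sources used here. What the authors deposited are expected counts of each region, without normalization. Of these, 95.1% were whole in the KD table, as were 95.0% in the other. They were rounded before testing, although the design had assumed whole counts. Each table also has 15 columns that match no sample and were not used.

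Groups came from the labels. The test was that of edgeR 4.0.16 (R 4.3.3) with TMM, filterByExpr, a quasi-likelihood fit and a Benjamini-Hochberg FDR of 0.05, over the whole of each table. KD is the mean of KD4 and KD6. DESeq2 1.42.0 was an alternative, as were other scalings, no filter, fits without the mitochondrial and the 20 largest regions, an FDR of 0.1, the replicate number as a block and each library left out. The procedure was tested on simulated data. Members, lists and rules were chosen with earlier results of these data known. Named were every Myc region, the first Pvt1 region, the 3 highest per kb in each table, every called member and otherwise the 2 members with the smallest p in a comparison. Likeness was Pearson's r of log2 CPM with a prior count of 2. Without gene names for the regions, the lists of pathway genes and of cell type markers, and a check of Smarcd1, could not be applied, and no sequence is shown. SDs measure the spread between these libraries. Standard errors are those of a log2 fold change, computed as its size divided by the square root of the F statistic of the edgeR test. They rest on an estimate of spread that draws in part on all regions.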

Additional observations from a re-analysis of the deposited data

How the results depend on the processing

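The count of locus regions past the threshold stayed within 1.5 times its value in 198 of 209 alternatives. Most of these were a 0 that stayed 0, since only Scr against EV in the OE table had a count above 0 in the main fit, and that count was not stable. No fold change called in any fit turned its direction. In the OE table KD against Scr gave 2 calls with DESeq2 and 0 to 1 with a library left out (1 without KD6 replicate 3), against 0 in edgeR. Scr against EV in that table made 5 calls, but 15 at an FDR of 0.1, 8 with upper quartile scaling, 13 with the replicate number as a block and 0 to 17 with a library left out. The KD libraries in the OE table, OE in the KD table and scaling over regions of the Pvt1 level were added after seeing the data. The log2 ratio of the summed Myc level of Scr over EV in the KD table was -0.09, and 0.0296 without TMM; 251 of 252 alternatives for summed levels moved by less than 1 SD of the replicates. Replicate numbers were not taken to pair the libraries: the labels put replicates on following days without saying that a number marks the same day in each line, same-numbered libraries had correlations of -0.33 to 0.31 over 27 pairs, and in 0 of 9 pairs of groups did all exceed 0.1. Apart from OE and EV, each pair of groups entered from both tables, which count the same libraries, so these are not 27 separate pairs. In 15 of 27 pairs a library correlated best with its own number. In the OE table this held at every number for Scr and EV (r of 0.04, 0.16 and 0.24) and at number 2 alone for KD6 and KD4. The block moved the calls of Scr against EV over the whole OE table to 4451, in place of 2013. At the locus it moved them to 13, in place of 5, and changed no other count of calls. At an unadjusted p under 0.05 the Pvt1 regions of OE against EV became 10, in place of 5, where 13% of all regions were. For Scr against EV they became 37, in place of 30, where 30.9% were. For KD6 against Scr they became 12, in place of 15, where 6.26% were. KD4 against Scr had 17, in place of 18, where 9.77% were, and KD against Scr 27, in place of 26, where 9.41% were. No summed level beside the genes was computed, since no region lies outside the approximate gene bounds. Depth limits Pvt1 most, with as few as 2 counts in a library at a region.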

Other observations

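By the same measure as for Myc, a choice made after values were seen, the regions of the OE table most like the summed Pvt1 level over 15 libraries lay on other chromosomes: chr6:35087978-35088749 (r = 0.97), chr1:159140455-159140647 (r = 0.96), chr1:168236826-168237016 (r = 0.96), chr12:102337838-102338257 (r = 0.96) and chr10:79353907-79354146 (r = 0.96). Their mean levels were 0.560 to 2.84 CPM, within the range of the Pvt1 regions.

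Within groups, Pvt1 varied from library to library by as much as it differed between groups. As the median deviation of its 57 regions from their means over 15 libraries, on the log2 scale, Pvt1 stood at -0.57, -0.23 and 0.34 in KD6, 0.24, -0.31 and -0.38 in KD4, 0.58, 0.02 and 0.57 in Scr, -0.04, -0.16 and 0.59 in OE and -0.15, -0.44 and 0.05 in EV. The same measure over the 19556 other regions of that level stood at -0.09, 0.01 and 0.14 in KD6, 0.06, 0.0025 and -0.0051 in KD4, 0.11, 0.03 and 0.18 in Scr, 0.01, -0.04 and 0.12 in OE and -0.13, -0.18 and -0.02 in EV.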
